A study of Homo sapiens with 6 samples.

Results

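Cadherins are calcium-dependent adhesion proteins whose extracellular repeats bind partners on neighbouring cells, and the loci that encode them and the protocadherins were followed here in ARPE-19, a human cell line that derives from the retinal pigment epithelium. A locus was included if it held an annotated protein-coding transcript and a gene symbol of the CDH, PCDH, FAT or DCHS families, and CDH1 and CDH2 were left out of the set. This gave 56 of the 60835 loci in the authors' table, of which 18304 held a protein-coding transcript, and the 56 loci carry 92 family symbols. RNA was sequenced from wild-type ARPE-19 cells kept for 72 h in high glucose medium (3 libraries) and from wild-type ARPE-19 cells kept for 72 h in normal glucose medium (3 libraries). Both groups are the same single cell line, the glucose concentrations are not given in the labels, and the labels do not say whether replicate libraries are separate cultures. The p-values below therefore measure only how far these libraries differ, which may be technical variation.

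Classical cadherins (types I and II) bind catenins on the inside of the membrane and hold adherens junctions together, and in the retinal pigment epithelium they form part of the belt that joins neighbouring cells. Protocadherins lack the catenin-binding tail. The clustered protocadherins (alpha, beta and gamma) lie side by side on chromosome 5, are switched on promoter by promoter and act in self-recognition of neurons. The FAT and DCHS proteins are giant cadherins of planar cell polarity and growth control.

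Each library held 81616741 to 87748820 counts, with at least 1 count at 30253 to 31698 loci. Normal glucose 3 stood apart from the other normal glucose libraries: the chi-square per locus was 242 and 280 against normal glucose 1 and 2, 104 between normal glucose 1 and 2, and 61.6 to 80.2 among the high glucose libraries. With edgeR's quasi-likelihood test, 4906 of 25025 tested loci had a Benjamini-Hochberg adjusted p under 0.05 and are referred to as called, and 7615 without normal glucose 3. Values per library are CPM, counts scaled to the TMM library size, log2 changes are high minus normal glucose, and SE is that of the edgeR estimate. A locus with 12 counts or fewer in a library (0.135 to 0.146 CPM) is treated as at the floor, since many counts came in steps of 4.

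Of the 56 loci, 41 passed the filter on low counts and were tested, 12 rose, 6 fell and 23 were not called. The share called, 43.9%, stood beside 25.5% of the 13786 tested protein-coding loci (13.1% called higher, 12.4% called lower) and 19.6% of all tested loci. 5 of the 41, all in the beta cluster, passed the filter only through the high glucose libraries, with no normal glucose library past its level. CDH3, CDH6, CDH8, PCDH20, PCDHB3, PCDHB11, PCDHB12, PCDHB13 and PCDHB16 had 3 high glucose libraries past it. In normal glucose they had only 1 or 2, and the filter needs 3. These loci could not have passed through normal glucose alone, so neither the count nor either median below is support for a direction. Groups did not overlap at 22 loci that were higher and 9 that were lower in high glucose, against 49.5% of tested protein-coding loci in either direction. The median log2 change of the 41 tested loci was 1.08, beside -0.004 for all tested loci. It was 0.65 over the 36 with at least 1 library past the filter level in each group. In bulk RNA, fewer cells that express a gene and less of its RNA per cell cannot be told apart.

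**Figure D1:**
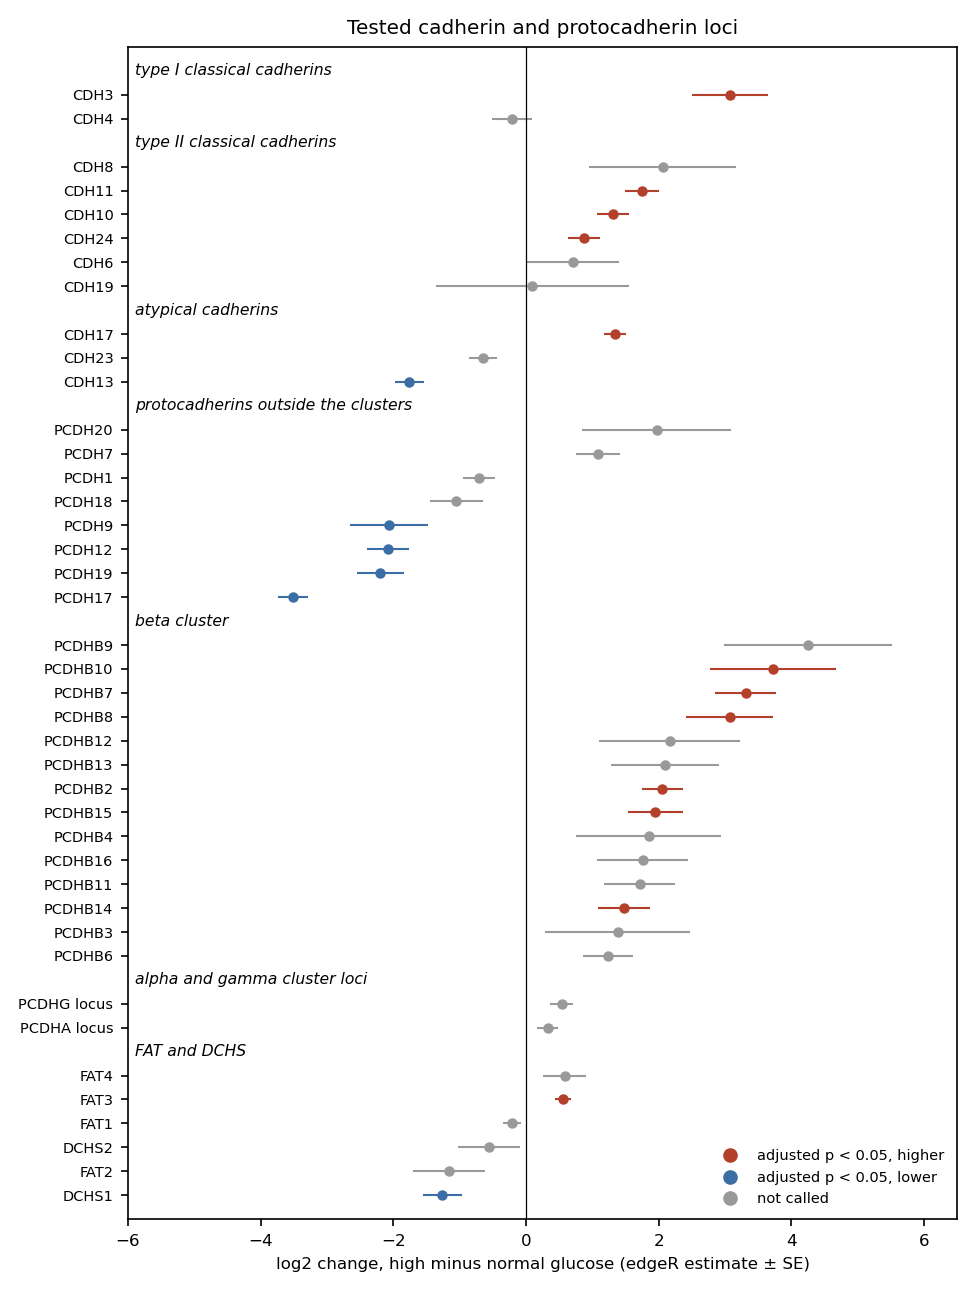
The log2 change of each of the 41 tested loci, high minus normal glucose, with its SE as a bar, is grouped by subfamily, with called loci in red (higher) or blue (lower). The 6 called beta cluster genes and the called classical cadherins lie right of 0, and the 4 called protocadherins outside the clusters lie left of it.

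The levels set the scale for these changes. By the deposited FPKM, which is per transcript length, 10 of the 56 loci averaged above 1 over the 6 libraries. FAT1, a giant cadherin that organises actin at cell contacts, led with 66.8 ± 5.33 FPKM in high glucose and 75.5 ± 10.8 FPKM in normal glucose (SD, n = 3 each). CDH11, the type II cadherin of osteoblasts and mesenchymal cells, averaged 21.8 ± 3.20 FPKM in high glucose and 6.30 ± 2.30 FPKM in normal glucose. PCDH1, a protocadherin of epithelia, averaged 9.02 ± 3.23 FPKM in high glucose and 14.3 ± 1.85 FPKM in normal glucose. The order of 2 of these genes differed between the groups: CDH11 stood above PCDH1 in all high glucose libraries and below it in all normal glucose libraries. CDH24, CDH4, FAT3, CDH10 and CDH17 followed with means over all libraries of 6.26, 5.90, 4.94, 4.84 and 4.71 FPKM, and their ranges overlapped one another. The 2 cadherins most often used to describe epithelial and mesenchymal states, which are outside the set, framed this order: CDH2 averaged 26.1 ± 0.528 FPKM in high glucose and 27.6 ± 4.04 FPKM in normal glucose, and CDH1 averaged 0.0410 ± 0.0165 FPKM in high glucose and 0.0552 ± 0.0199 FPKM in normal glucose. Neither was called (edgeR adjusted p = 0.561 for CDH2 and 0.571 for CDH1).

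**Figure D2:**
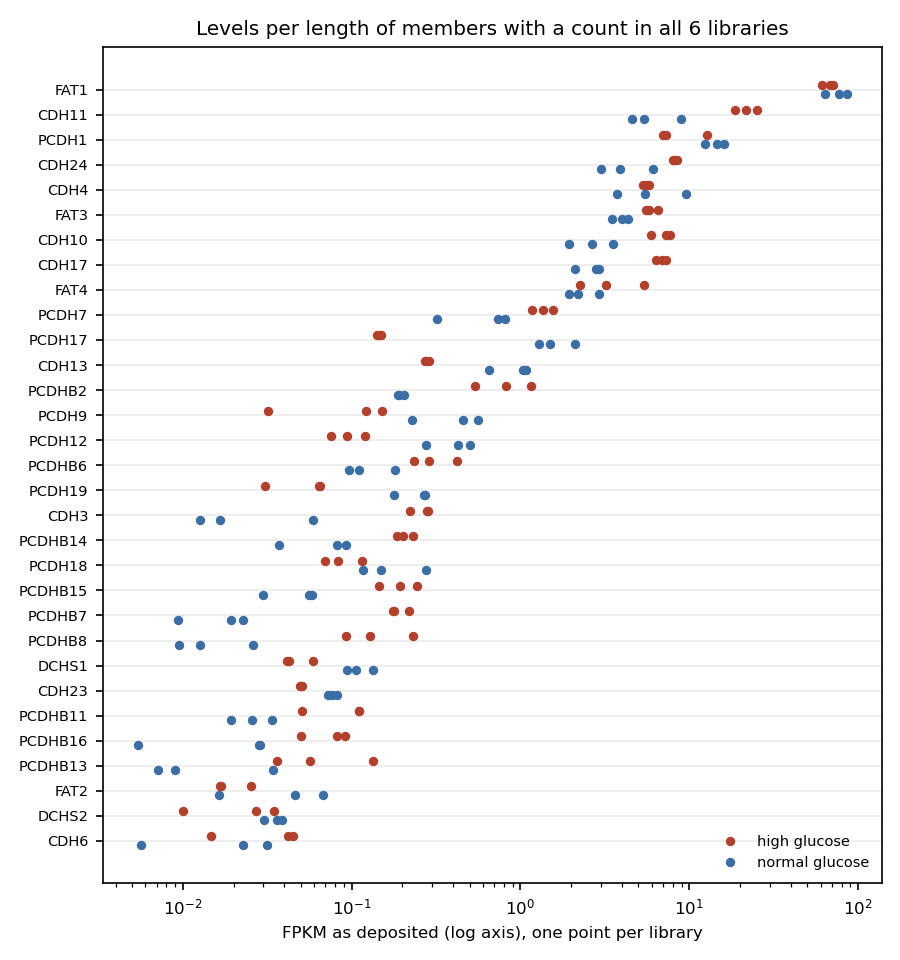
Deposited FPKM on a log axis is shown for the loci with a count in all 6 libraries, 1 point per library, high glucose drawn above normal glucose, and the alpha and gamma cluster loci are left out because their FPKM rests on whole-cluster lengths. FAT1 stands above all others in both groups, CDH11 is higher in high glucose, and most beta cluster genes lie below 1 FPKM.

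Among type I classical cadherins, CDH3 rose. CDH3 is P-cadherin, an adherens junction protein of the retinal pigment epithelium whose loss causes a juvenile macular dystrophy. It had 2.07, 2.09 and 1.68 CPM in high glucose, against 0.104, 0.128 and 0.457 CPM in normal glucose. The groups were far apart, with 2 normal glucose libraries at or under the floor (log2 change 3.08, SE 0.575, edgeR adjusted p = 0.0138). CDH4, the R-cadherin of retina, had 48.2, 50.6 and 53.0 CPM in high glucose, against 89.0, 51.4 and 35.3 CPM in normal glucose. The CDH4 groups overlapped and the change was not called (log2 change -0.21, edgeR adjusted p = 0.673). CDH15, the muscle cadherin, was at or near the floor and was not tested. The CDH3 call was lost when any single high glucose library was left out (edgeR adjusted p at most 0.0574).

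Of 13 type II classical cadherins, 6 were tested, 3 rose and none fell. CDH11, at a locus that also carries the name AC010533 (chr16:64943753-65126112), had 456, 399 and 344 CPM in high glucose, against 86.0, 102 and 169 CPM in normal glucose. Every high glucose library was above every normal glucose library, by more than the whole range of the normal glucose values (log2 change 1.75, SE 0.261, edgeR adjusted p = 0.00741). CDH10, a cadherin best known from the brain, had 31.9, 34.3 and 26.4 CPM in high glucose, against 12.2, 8.88 and 16.2 CPM in normal glucose. Its groups did not overlap either (log2 change 1.31, SE 0.235, edgeR adjusted p = 0.0122). CDH24, a type II cadherin that binds catenins, had 58.9, 56.2 and 57.1 CPM in high glucose, against 28.0, 21.7 and 44.1 CPM in normal glucose. The high glucose values were close together and the normal glucose values were spread, with normal glucose 3 nearest to high glucose (log2 change 0.88, SE 0.248, edgeR adjusted p = 0.0481). The call for CDH11 held in all 6 omissions of 1 library, that for CDH10 was lost without high glucose 1 or 2 (adjusted p at most 0.0569), and that for CDH24 was lost without any library other than normal glucose 3 (adjusted p at most 0.138).

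The other type II members were low. CDH6, a kidney and neural crest cadherin, had 0.639, 0.228 and 0.692 CPM in high glucose, against 0.497, 0.0932 and 0.361 CPM in normal glucose, and the groups overlapped (edgeR adjusted p = 0.520). CDH8 was not called (edgeR adjusted p = 0.238) and CDH19 was at or under the floor in most libraries of both groups. CDH9 and CDH22 had no count in any library, and CDH12 had counts only in high glucose 3. CDH5, the endothelial VE-cadherin, had at most 0.0486 CPM in high glucose and 0.0962 CPM in normal glucose.

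The atypical cadherins moved in both directions. CDH17, the liver-intestine cadherin with extra extracellular repeats, rose, with 33.7, 29.8 and 32.7 CPM in high glucose, against 14.1, 10.2 and 13.6 CPM in normal glucose. The groups were tight and well separated (log2 change 1.35, SE 0.162, edgeR adjusted p = 0.00408). CDH13, the T-cadherin that is anchored by a lipid and binds adiponectin, fell, with 3.76, 3.83 and 3.96 CPM in high glucose, against 14.6, 15.2 and 9.28 CPM in normal glucose. The high glucose libraries were nearly alike, below all normal glucose libraries (log2 change -1.76, SE 0.222, edgeR adjusted p = 0.00465). Both calls held in all 6 omissions. CDH23, which builds the tip links of hair cells together with PCDH15, had 1.14, 1.197 and 1.19 CPM in high glucose, against 1.95, 1.74 and 1.84 CPM in normal glucose. Those groups did not overlap, but the change was not called by edgeR (log2 change -0.65, adjusted p = 0.0770). CDH16, the kidney cadherin, had counts only in high glucose 3, and CDH26 stayed under the floor in every library.

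Of 11 protocadherins outside the clusters, 8 were tested, 4 fell and none rose. PCDH17, an adhesion protein of synapses and axons, fell most among the members in high glucose (chr13:57631744-57729311). It had 1.44, 1.53 and 1.52 CPM in high glucose, against 15.6, 21.9 and 13.6 CPM in normal glucose. The lowest normal glucose library was several times above the highest high glucose library (log2 change -3.51, SE 0.230, edgeR adjusted p = 0.00119). PCDH19, whose mutations cause an epilepsy, had 0.762, 0.775 and 0.376 CPM in high glucose, against 2.18, 3.29 and 3.32 CPM in normal glucose. The PCDH19 groups did not overlap (log2 change -2.19, SE 0.357, edgeR adjusted p = 0.00910). PCDH12, first described in endothelium as VE-cadherin-2, had 0.897, 0.570 and 0.704 CPM in high glucose, against 3.25, 3.82 and 2.14 CPM in normal glucose. It too was below all normal glucose libraries in every high glucose library (log2 change -2.08, SE 0.316, edgeR adjusted p = 0.00761). PCDH9, a protocadherin of the developing brain, had 1.199, 4.57 and 5.69 CPM in high glucose, against 17.6, 21.6 and 8.80 CPM in normal glucose. Its values were spread within both groups, with high glucose 1 lowest (log2 change -2.06, SE 0.582, edgeR adjusted p = 0.0475). The calls for PCDH17, PCDH19 and PCDH12 held in all 6 omissions, and that for PCDH9 was lost without any library other than normal glucose 3 (adjusted p at most 0.130).

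Beside PCDH12, the endothelial marker list was also lower: its 10 genes summed to 26.1 to 30.2 CPM in high glucose and 47.7 to 64.5 CPM in normal glucose, with KDR, EGFL7 and ROBO4 called lower and none called higher. The defining endothelial markers ERG, TIE1 and CLDN5 had too few counts to be tested, and PECAM1 reached at most 0.182 CPM in high glucose and 0.806 CPM in normal glucose. VWF, ESAM and TEK were tested and not called (edgeR adjusted p = 0.148, 0.0807 and 0.185). VWF had 0.996 to 1.57 CPM in high glucose and 1.98 to 2.21 CPM in normal glucose, and ESAM had 0.213 to 0.821 CPM in high glucose and 0.758 to 2.18 CPM in normal glucose. TEK ran the other way, with 0.146 to 0.274 CPM in high glucose and 0 to 0.0924 CPM in normal glucose. With 8, 0 and 0 counts in normal glucose, TEK was under the floor there and passed the filter only through high glucose. The part of the endothelial list in the PCDH12 result was not tested.

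The 4 other tested protocadherins outside the clusters were not called. PCDH1 had 127, 70.7 and 74.1 CPM in high glucose, against 151, 128 and 167 CPM in normal glucose (log2 change -0.71, edgeR adjusted p = 0.0815, called without high glucose 1 at 0.0275). PCDH7, a protocadherin of epithelia and brain, had 23.1, 17.4 and 20.3 CPM in high glucose, against 4.93, 11.2 and 12.5 CPM in normal glucose (log2 change 1.08, edgeR adjusted p = 0.0630, called without normal glucose 1 or 3). In both genes the groups did not overlap and DESeq2 called the change (adjusted p = 0.0326 for PCDH1 and 0.0116 for PCDH7). PCDH20 had 5.09, 6.53 and 5.28 CPM in high glucose, against 0, 2.37 and 1.95 CPM in normal glucose, where normal glucose 1 had no count (edgeR adjusted p = 0.268, called without normal glucose 1 at 0.0245). PCDH18 also did not pass (log2 change -1.05, edgeR adjusted p = 0.112). PCDH15 had counts only in high glucose and PCDH8 only in normal glucose, both at the floor in most libraries, and PCDH10 was under the floor throughout.

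**Figure D3:**
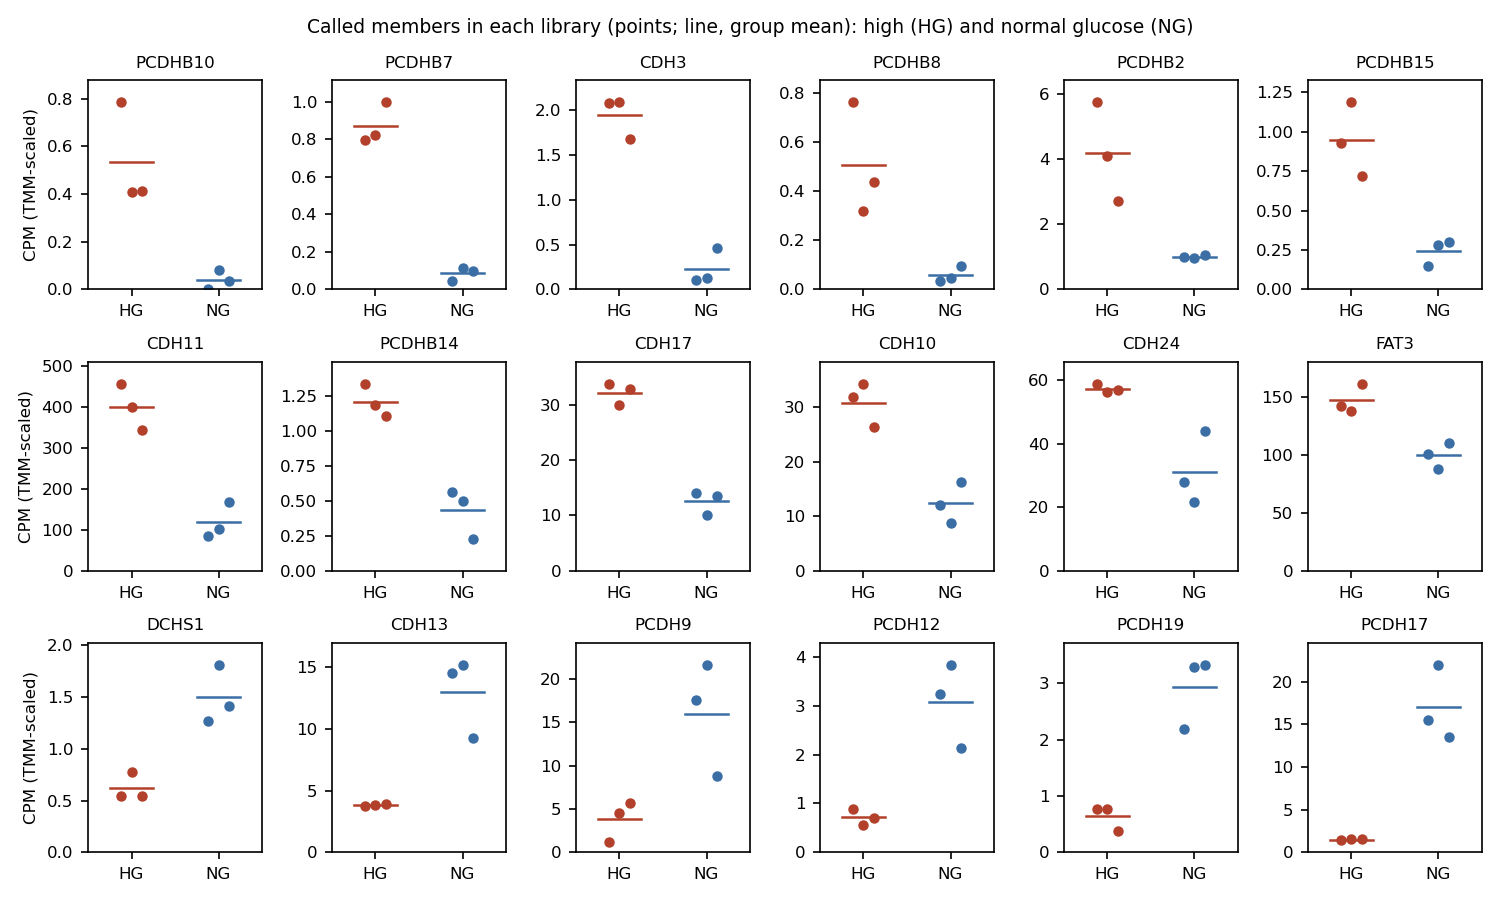
CPM of the 18 called loci is shown in each library as points with the group mean as a line, high glucose left of normal glucose, each panel on its own axis from 0. The first 12 panels are higher in high glucose and the last 6 are lower, and in all 18 panels the groups do not overlap. The loci were picked by adjusted p from these same libraries, so the lack of overlap is no further support. For comparison, groups did not overlap, in either direction, at 49.5% of tested protein-coding loci. PCDHB7, PCDHB8 and PCDHB10 passed the filter only through high glucose.

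The beta cluster, with 16 genes the largest subfamily, held 6 of the 12 genes that rose. Of its tested genes 42.9% were called, beside 66.7% of the atypical cadherins and 50.0% of type I, type II and non-clustered members, and 3 of the 6 passed the filter only through high glucose. Its genes are single exons, each with its own promoter, and the promoters of clustered protocadherins are known to share an element with the core CGCT. In the RefSeq promoter table (GRCh38.p14, 250 bases before to 50 after each start), 14 of the 16 PCDHB symbols had a sequence. The 8 letters GTGGCGCT, searched on both strands and chosen after the PCDHB promoters had been compared, were present in 13 of the 14, with the exception of PCDHB1. They were found in none of 13 PCDHA, 25 PCDHG and 35 other promoters of the set, and in 404 of 35116 promoters of the table (1.15%). The match began 1 to 83 bases before the start, with a median of 65. The windows of 40 bases around it (plus strand, capitals mark the 8 letters) are given for the 6 called genes, and for PCDHB5, which carries the letters but was at or under the floor in both groups.
PCDHB2 (chr5:141094540-141094579): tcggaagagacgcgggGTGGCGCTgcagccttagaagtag
PCDHB7 (chr5:141172562-141172601): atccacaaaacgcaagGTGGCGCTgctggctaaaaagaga
PCDHB8 (chr5:141177773-141177812): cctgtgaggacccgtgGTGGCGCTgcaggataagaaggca
PCDHB10 (chr5:141192295-141192334): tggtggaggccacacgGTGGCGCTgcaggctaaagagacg
PCDHB14 (chr5:141223259-141223298): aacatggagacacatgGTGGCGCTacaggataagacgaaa
PCDHB15 (chr5:141245310-141245349): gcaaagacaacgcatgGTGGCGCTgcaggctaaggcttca
PCDHB5 (chr5:141135175-141135214): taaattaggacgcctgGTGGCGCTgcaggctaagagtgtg

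Of 16 beta cluster genes, 14 were tested, 6 rose, none fell and 8 were not called. PCDHB2, the most abundant, had 5.73, 4.09 and 2.71 CPM in high glucose, against 0.982, 0.967 and 1.06 CPM in normal glucose. The high glucose libraries were spread and the normal glucose libraries were alike, with a gap between the groups (log2 change 2.06, SE 0.311, edgeR adjusted p = 0.00756). PCDHB7 had 71, 72 and 82 counts in high glucose, against 4, 10 and 8 counts in normal glucose. All 3 normal glucose libraries were at or under the floor (log2 change 3.31, SE 0.463, edgeR adjusted p = 0.00611). PCDHB8 had 68, 28 and 36 counts in high glucose, against 3, 4 and 8 counts in normal glucose (edgeR adjusted p = 0.0200). PCDHB10 had 70, 36 and 34 counts in high glucose, against 0, 7 and 3 counts in normal glucose (edgeR adjusted p = 0.0357). For PCDHB7, PCDHB8 and PCDHB10 the size of the fitted change depends on these few normal glucose counts, and each passed the filter only through high glucose. PCDHB14 had 119, 104 and 91 counts in high glucose, against 49, 43 and 19 counts in normal glucose (log2 change 1.48, SE 0.390, edgeR adjusted p = 0.0392). PCDHB15 had 83, 104 and 59 counts in high glucose, against 13, 24 and 25 counts in normal glucose (log2 change 1.95, SE 0.413, edgeR adjusted p = 0.0201). Every high glucose library was above every normal glucose library for both.

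The PCDHB2 and PCDHB7 calls held in all 6 omissions. Those for PCDHB8, PCDHB10, PCDHB14 and PCDHB15 were each lost without any single high glucose library, and further without normal glucose 1 or 2 (PCDHB8, PCDHB14), 2 (PCDHB15) or 3 (PCDHB10), with adjusted p of at most 0.0979, 0.138, 0.123 and 0.0892 in that order. The genes of the cluster are close paralogs, so the division of reads between them is uncertain, and their sum was computed over all 16 genes with no filter. The sum was 13.97, 11.4 and 10.7 CPM in high glucose, against 2.75, 3.03 and 3.26 CPM in normal glucose, a ratio of means of 4.0. Without PCDHB2 it averaged 7.86 ± 0.458 CPM in high glucose and 2.01 ± 0.222 CPM in normal glucose (SD, n = 3 each), a ratio of 3.91. In high glucose 13 or 14 of the 16 genes had more than 12 counts, and in normal glucose 5 or 6 did. As a description of genes at like levels, 9.15% of 2634 tested protein-coding loci with a mean of 3 CPM or less were called higher, and their median log2 change was 0.10.

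The 8 genes tested but not called were PCDHB3, PCDHB4, PCDHB6, PCDHB9, PCDHB11, PCDHB12, PCDHB13 and PCDHB16. PCDHB4 and PCDHB9 passed the filter only through high glucose, which fixed their direction. Of the other 6, only PCDHB6 had all 3 normal glucose libraries past the filter level. PCDHB3, PCDHB11, PCDHB12, PCDHB13 and PCDHB16 had 1 or 2 there, against 3 in high glucose, so the filter favoured their direction too. All 6 had positive log2 changes, as did 54.3% of the tested protein-coding loci at 3 CPM or less. PCDHB6 had 1.14, 0.934 and 1.68 CPM in high glucose, against 0.451, 0.396 and 0.746 CPM in normal glucose (edgeR adjusted p = 0.0621), and PCDHB9 and PCDHB11 had adjusted p of 0.0570 and 0.0636. The groups did not overlap for any of these 3, as for 49.5% of tested protein-coding loci in either direction, and DESeq2 called all of them. For PCDHB9 and PCDHB11 neither is support for a direction, since both genes needed the high glucose libraries to pass the filter. PCDHB1, the first gene of the cluster, had counts only in high glucose 1, and PCDHB5 had at most 0.0456 CPM in high glucose and 0.0466 CPM in normal glucose.

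**Figure D4:**
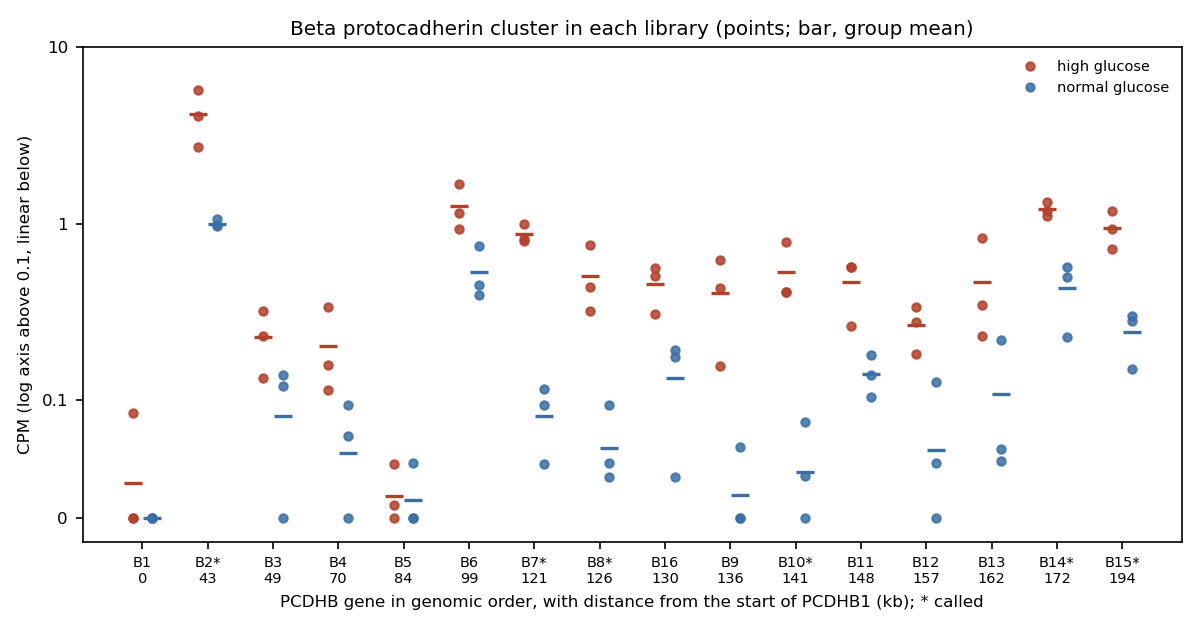
CPM of the 16 beta cluster genes is shown in genomic order, with the distance from PCDHB1 in kb, 1 point per library and a bar for the group mean, on an axis that is logarithmic above 0.1 CPM and linear below. High glucose points lie above all normal glucose points at 13 of the 16 genes, and PCDHB1 and PCDHB5 lie at the floor in both groups. For comparison, groups did not overlap, in either direction, at 49.5% of tested protein-coding loci. Of the 13, PCDHB4, PCDHB7, PCDHB8, PCDHB9 and PCDHB10 passed the filter only through high glucose.

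Other loci within the span of the clusters were not uniform. TAF7, a general transcription factor gene on the opposite strand, rose, with 60.2, 62.2 and 53.8 CPM in high glucose, against 39.4, 43.5 and 42.9 CPM in normal glucose (log2 change 0.48, SE 0.110, edgeR adjusted p = 0.0243). Of 2 loci with the name AC005618, ENSG00000272070 rose (log2 change 1.86, edgeR adjusted p = 0.0251) and ENSG00000288095 was not called (log2 change 1.79, edgeR adjusted p = 0.160), both under 1 CPM. A second, short locus with the name TAF7 was called higher (edgeR adjusted p = 0.0391), but with 4, 4 and 8 counts in normal glucose it passed the filter only through high glucose. SLC25A2, a mitochondrial carrier gene on the same side as TAF7, was not called (log2 change 0.24, edgeR adjusted p = 0.907). The gamma cluster pseudogenes PCDHGB8P and PCDHGB9P were not called (edgeR adjusted p = 0.268 and 0.658). The beta cluster pseudogene PCDHB19P had 18, 9 and 5 counts in high glucose, against 1, 9 and 32 counts in normal glucose. AC244517 had 0, 104 and 0 counts in high glucose, against 0, 0 and 62 counts in normal glucose. Neither PCDHB19P nor AC244517 was tested. Of all tested loci, 19.6% were called in either direction. These neighbours were chosen by position, and not every locus in the span is given here.

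The alpha and gamma clusters are each 1 locus in the authors' table. Their many first exons are spliced to shared last exons, and no first exon can be followed on its own here. The gamma locus, with 22 gene names, had 280, 218 and 282 CPM in high glucose, against 166, 150 and 221 CPM in normal glucose. High glucose 2 lay just below normal glucose 3, so the groups overlapped, and the change was not called by edgeR (log2 change 0.54, adjusted p = 0.0757, or 0.0117 without normal glucose 3). DESeq2 gave an adjusted p of 0.0489 for the gamma locus. The alpha locus, with 16 gene names, had 43.6, 48.8 and 42.6 CPM in high glucose, against 38.7, 40.1 and 28.6 CPM in normal glucose. The alpha groups did not overlap, and the change was not called (log2 change 0.33, edgeR adjusted p = 0.183).

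All 6 FAT and DCHS genes were tested, 1 rose and 1 fell. FAT3, which shapes neuron processes in the mouse retina, had 142, 138 and 161 CPM in high glucose, against 101, 88.2 and 110 CPM in normal glucose. The groups did not overlap and the change was the smallest of the 18 calls (log2 change 0.56, SE 0.123, edgeR adjusted p = 0.0225). DCHS1, the ligand of FAT4 in planar polarity, had 0.549, 0.775 and 0.546 CPM in high glucose, against 1.27, 1.81 and 1.419 CPM in normal glucose. It was low in all libraries and lower in every high glucose library (log2 change -1.26, SE 0.294, edgeR adjusted p = 0.0266). FAT4 itself had 48.9, 118 and 70.2 CPM in high glucose, against 49.0, 65.4 and 43.8 CPM in normal glucose. High glucose 2 was far above the other libraries, and the change was not called (log2 change 0.58, edgeR adjusted p = 0.246). FAT1 had 1192, 1362 and 1412 CPM in high glucose, against 1737, 1563 and 1309 CPM in normal glucose, overlapping groups that were not called (log2 change -0.22, edgeR adjusted p = 0.308). FAT2 and DCHS2 were not called either (edgeR adjusted p = 0.179 and 0.445). The FAT3 call was lost without any library other than normal glucose 3 and the DCHS1 call without any high glucose library or normal glucose 2, with adjusted p of at most 0.0912 and 0.101.

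Genes that work with the cadherins were described from 7 lists. Each list's share called stands beside 25.5% of tested protein-coding loci, and a share near or under that is no result about the list. Among 18 tested catenins and junction partners, 6 rose and 3 fell (50.0% called), with a median log2 change of 0.18. VCL, the vinculin that joins adherens junctions to actin, had 825, 808 and 841 CPM in high glucose, against 282, 229 and 388 CPM in normal glucose (log2 change 1.46, SE 0.192, edgeR adjusted p = 0.00516). CTNND1, the p120 catenin that keeps classical cadherins at the membrane, sits at a locus shared with TMX2 and SELENOH, and rose by 0.63 on the log2 scale (edgeR adjusted p = 0.0141). NECTIN2, an immunoglobulin-like adhesion protein, and PTPRF, a receptor phosphatase, rose by 0.53 and 0.50 on the log2 scale (edgeR adjusted p = 0.0103 and 0.0165). JUP, the plakoglobin of junctions and desmosomes, named after its values were seen, had 163, 150 and 168 CPM in high glucose, against 33.1, 38.7 and 81.3 CPM in normal glucose (log2 change 1.65, edgeR adjusted p = 0.0168). The genes that fell, also named after their values were seen, were CTNNA3, an alpha-catenin of heart muscle, and the receptor phosphatases PTPRM and PTPRK, by -3.35, -0.75 and -0.55 on the log2 scale (edgeR adjusted p = 0.0406, 0.0199 and 0.0221). CTNNA3 in normal glucose 3, at 0.277 CPM, lay within the high glucose range. CTNNB1, the beta-catenin that links most classical cadherins to actin, had 328, 313 and 307 CPM in high glucose, against 288, 297 and 350 CPM in normal glucose, overlapping groups which were not called (log2 change 0.02, edgeR adjusted p = 0.926). Of these calls only that for VCL held in all 6 omissions, and with any 1 high glucose library left out 1 gene of the list was called, against 15 without normal glucose 3.

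Among 19 tested genes of the wider cadherin superfamily, 4 rose and 1 fell (26.3% called), with a median of -0.11. CLSTN3, a calsyntenin, had 183, 186 and 180 CPM in high glucose, against 71.8, 69.5 and 97.7 CPM in normal glucose, which did not overlap (log2 change 1.2, SE 0.149, edgeR adjusted p = 0.00454). CELSR1, a planar polarity cadherin, and CDHR5, a brush border cadherin, rose by 0.71 and 1.54 on the log2 scale (edgeR adjusted p = 0.0133 and 0.0348). DSC1, a desmosomal cadherin of upper epidermis, fell, with 0, 0.479 and 0.194 CPM in high glucose, against 20.02, 27.9 and 2.38 CPM in normal glucose. Normal glucose 3 was far below the other 2 normal glucose libraries (edgeR adjusted p = 0.0188). The fifth call was CELSR3, which rose and was named after its values were seen (log2 change 0.48, edgeR adjusted p = 0.0364). Only the CLSTN3 call held in all 6 omissions, and with any 1 high glucose library left out 1 gene of the list was called.

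Among 17 enzymes that cut or glycosylate cadherins, 2 rose and 1 fell (17.6% called), with a median of 0.15. APH1B, a gamma-secretase subunit, had 26.3, 51.9 and 56.2 CPM in high glucose, against 14.9, 11.2 and 12.6 CPM in normal glucose (log2 change 1.79, SE 0.292, edgeR adjusted p = 0.00911). NCSTN, another subunit, rose by 0.37 on the log2 scale (edgeR adjusted p = 0.0392), while TMTC1, which adds mannose to cadherin repeats, changed by -0.73 on the log2 scale (edgeR adjusted p = 0.00869). Among 15 regulators of the protocadherin clusters, 1 rose and 3 fell (26.7% called), with a median of -0.24. ZNF143, a zinc finger protein of promoters, had 13.4, 11.8 and 14.8 CPM in high glucose, against 23.2, 26.2 and 24.02 CPM in normal glucose (log2 change -0.88, SE 0.139, edgeR adjusted p = 0.00847). PDS5A and STAG1, which belong to or regulate cohesin, changed by -0.60 and -0.44 on the log2 scale (edgeR adjusted p = 0.00766 and 0.0253), and HNRNPU, a nuclear matrix protein, rose by 0.63 on the log2 scale (edgeR adjusted p = 0.0108). CTCF, the insulator protein that binds protocadherin promoters, had 28.6, 31.4 and 27.5 CPM in high glucose, against 32.4, 38.4 and 40.4 CPM in normal glucose. The CTCF groups did not overlap and the change was not called (log2 change -0.35, edgeR adjusted p = 0.106). The calls for APH1B, TMTC1 and ZNF143 held in all 6 omissions. Those for NCSTN and STAG1 were lost without any library other than normal glucose 3 (adjusted p at most 0.148 and 0.110), for PDS5A without high glucose 3 (0.0505) and for HNRNPU without high glucose 2 or 3 (at most 0.0564), and without high glucose 3, 1 regulator was called.

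Among 15 effectors of protocadherin signalling, 3 fell and none rose, with a median of -0.01. The share called was under the 25.5% of tested protein-coding loci, so it is no result about the list. WASF1, an actin regulator of the WAVE complex, had 42.3, 41.5 and 42.3 CPM in high glucose, against 85.01, 111 and 80.1 CPM in normal glucose (log2 change -1.13, SE 0.142, edgeR adjusted p = 0.00465). NCKAP1 of the same complex and FYN, a tyrosine kinase, changed by -0.40 and -0.74 on the log2 scale (edgeR adjusted p = 0.0230 and 0.0417). With any 1 library other than normal glucose 3 left out, 1 gene of this list was called. Among 15 partners of FAT and DCHS, 4 rose and none fell (26.7% called, near the 25.5% of tested protein-coding loci), with a median of 0.02. They were LIX1L, DLG1, FJX1 and PALS1, higher by 0.79, 0.65, 0.47 and 0.36 on the log2 scale (edgeR adjusted p = 0.0104, 0.0123, 0.0351 and 0.0484). FJX1 is the human relative of the fly kinase that phosphorylates Fat and Dachsous, and without high glucose 2 or 3 none of the list was called.

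Of 14 genes listed as tip link partners, 8 were tested and 4 of these were called (50.0%), with a median of -0.86. The list mixes genes of the tip link with genes of the WHRN complex, to which the called genes named here belong. The share is therefore not one of tip link genes alone. MYO7A, CIB2, LHFPL5 and TMIE were tested and not called (edgeR adjusted p = 0.436, 0.403, 0.962 and 0.123). WHRN, a scaffold of photoreceptors and hair cells, had 38.3, 31.5 and 32.9 CPM in high glucose, against 74.5, 86.0 and 76.2 CPM in normal glucose (log2 change -1.21, SE 0.123, edgeR adjusted p = 0.00279). ADGRV1, a giant adhesion receptor that WHRN binds, fell, with a log2 change of -2.01 and SE of 0.246 (edgeR adjusted p = 0.00436). PDZD7, which belongs to the same complex as WHRN, rose by 0.71 on the log2 scale (edgeR adjusted p = 0.0324). The WHRN and ADGRV1 calls held in all 6 omissions, and that for PDZD7 was lost without any library other than normal glucose 3.

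**Figure D5:**
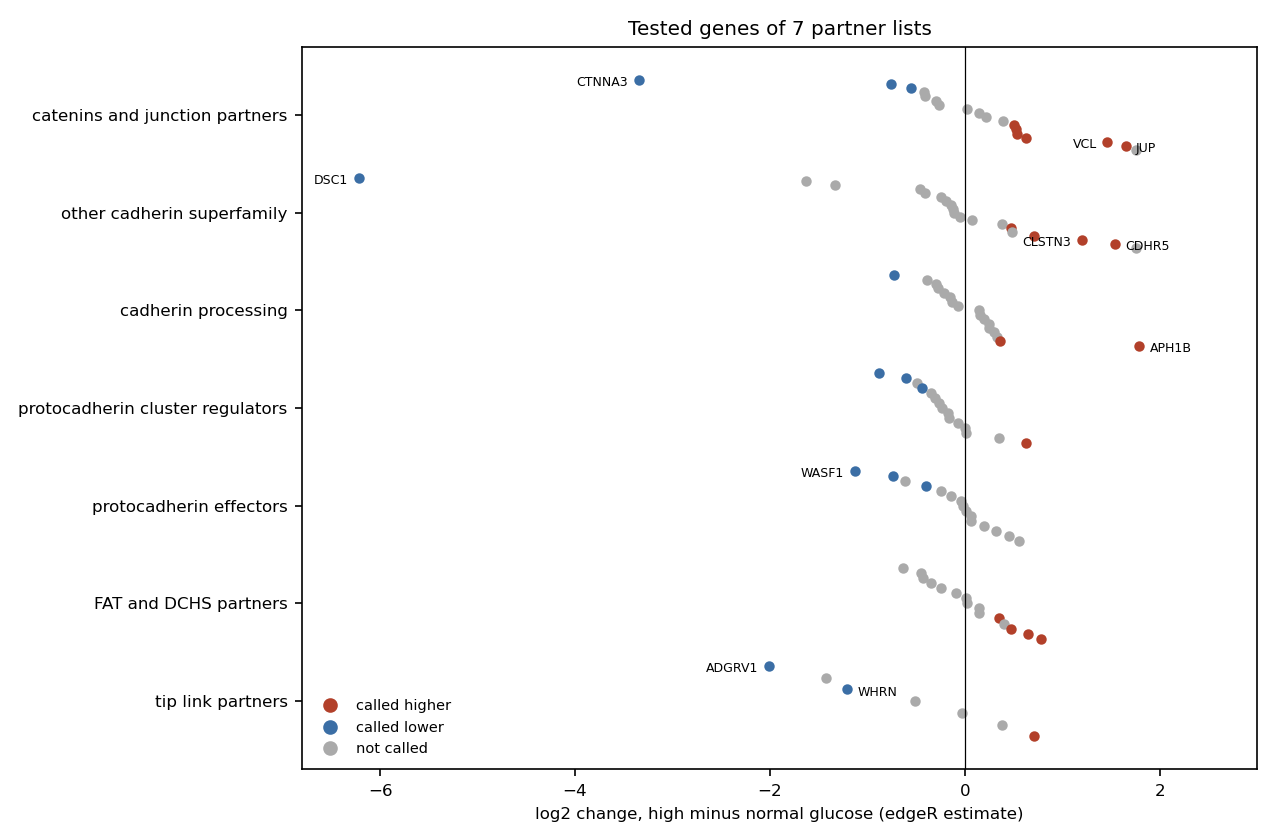
The log2 change, high minus normal glucose, is shown for tested genes of the 7 partner lists, called genes in red (higher) or blue (lower) and the others in grey, with names for called genes beyond a log2 change of 1. DSC1 lies farthest left, and JUP, VCL and APH1B lie right of the other called genes in their lists.

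The labelled cell type was only partly borne out by its markers. Of 15 retinal pigment epithelium markers, 11 were tested, and RPE65, TYR, DCT and TTR were at or near 0 in all libraries. The 15 markers summed to 2220 to 2350 CPM in high glucose and 615 to 1160 CPM in normal glucose, carried by the keratins KRT8 and KRT18, which rose (edgeR adjusted p = 0.0152 and 0.00636). BEST1, a channel of this epithelium, fell (edgeR adjusted p = 0.0113). MITF, RAX, PMEL and SERPINF1 were lower in every high glucose library but not called (edgeR adjusted p = 0.103, 0.152, 0.325 and 0.239). Groups did not overlap, in either direction, at 49.5% of tested protein-coding loci. OTX2, LRAT, RLBP1 and TYRP1 overlapped and were not called (edgeR adjusted p = 0.661, 0.602, 0.707 and 0.939). MITF averaged 49.8 CPM in high glucose and 83.1 CPM in normal glucose, and OTX2 averaged 43.0 and 38.6 CPM. Fibroblast markers summed to 201 to 208 CPM in high glucose and 150 to 262 CPM in normal glucose, with PDGFRB, which made up most of it in high glucose, called higher, and COL1A1 and TWIST1 called lower (edgeR adjusted p = 0.00572, 0.0302 and 0.0203). Sums leave out markers whose locus carries another gene name. Neuronal markers summed to 89.1 to 150 CPM in high glucose and 157 to 318 CPM in normal glucose, with STMN2 at 0. MAP2 was called lower (edgeR adjusted p = 0.0367), and SYT1, not called, had 30.5, 42.7 and 43.6 CPM in high glucose, against 20.3, 17.96 and 30.4 CPM in normal glucose. Photoreceptor markers summed to 13.9 to 21.5 CPM in high glucose and 7.5 to 8.86 CPM in normal glucose, mostly PDE6B, with CRX at 0. Glial markers summed to 8.08 to 9.0 CPM in high glucose and 5.06 to 6.29 CPM in normal glucose, with AQP4 at 0. Immune markers summed to 0.437 to 0.572 CPM in high glucose and 0.219 to 1.04 CPM in normal glucose, with CD3E, MS4A1 and AIF1 at 0. The part of the lists that moved in the changes of cadherins and protocadherins was not tested.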

How the data were processed

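RNA from 6 libraries of ARPE-19 cells was analysed. The authors deposited 1 table with a raw count and an FPKM per locus and library, per the file headers. FPKM is scaled by the authors to length and library size and holds 0.0001 where the count is 0. Bowtie 0.12.2 and mm8, a mouse build, are named in the submitters' processing notes, but the positions in the table are human: 92 of 92 member symbols overlapped their GRCh38.p14 position. The counting tool and any use of strand are not given in the sources used here, so overlapping and antisense genes may share reads. The extraction text mentions both poly(A) selection and a fraction without it, and adipose tissue, so RNA selection is not settled. The 37 mitochondrial loci are listed at 0 and were left out.

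Counts were filtered with filterByExpr (10 counts at the median library, or 0.115 CPM, in 3 libraries), scaled by TMM and tested in edgeR 4.0.16 (R 4.3.3) (glmQLFit, glmQLFTest) for high minus normal glucose, 2-sided and with no covariate, with Benjamini-Hochberg adjustment over 25025 loci. SE is the log2 change divided by the square root of F. FPKM was used to describe and order levels and in the limma alternatives, and not for the calls. The depth of each library, 81616741 to 87748820 counts, limits precision for genes near the floor of 12 counts, which is 3 fragments if 1 fragment was counted 4 times (9555 values of 4 against 4210 of 3), and such floors cover counting error only. Alternatives were DESeq2 1.42.0, limma 3.58.1 on log2(FPKM + 1) and log2(FPKM + 0.1), other scalings and filters, counts divided by 4, a minimum log2 change of 1, a replicate block and the omission of each library. The fit was tested on simulated data. Of 100 loci given a 2-fold change, 24% were recovered with the correct sign, and of 100 given a 4-fold change, 89% were. Among unchanged loci, 12 were called. Most simulated 2-fold changes were thus missed, so a locus that was not called may still differ. Members and lists were chosen with earlier results of these data known. Named are all called members, the 3 members of each subfamily highest in FPKM, members at 0 in a group, up to 4 called genes per list by adjusted p, and CDH1 and CDH2. Others were named after their values were seen. 1 called tip link partner is not reported here.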

Additional observations from a re-analysis of the deposited data

How the results depend on the processing

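All 18 calls among the members kept their direction under every alternative run. DESeq2 and the 3 other scalings kept all 18 calls, limma kept 16 (pseudocount 1) or 17 (pseudocount 0.1), the filter of at least 1 count kept 17, and counts divided by 4 kept all 16 that were tested. DESeq2 called 17 members higher and 8 lower. With a mean count of at least 100, 6 members were higher, since 20 were tested. With a minimum log2 change of 1, 1 member was higher (PCDHB7) and 1 lower (PCDH17), 303 loci were called, and the list counts were 1 for tip link partners and 0 for the 6 others.

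Same-numbered libraries did not deviate together (correlations of -0.017, -0.000759 and -0.00942). With 3 libraries per group this cannot exclude that the numbers pair the samples, and the labels do not state a pairing. With the replicate number as a block, 2545 loci, 7 members higher and 4 lower were called, 11 of the 18 calls held, and the list counts were 4 (catenins), 3 (other cadherins), 2 (cadherin processing), 3 (cluster regulators), 1 (effectors), 2 (FAT and DCHS partners) and 2 (tip link partners). The at least 1 count filter gave 2 for the FAT and DCHS partners, limma gave 3 for the other cadherins (pseudocount 1) and 2 for the tip link partners (both pseudocounts).

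Omitting 1 library at a time gave 1421 to 7615 loci, 4 to 15 members higher and 4 to 6 lower, and list counts of 1 to 15 (catenins), 1 to 6 (other cadherins), 2 to 5 (processing), 1 to 5 (cluster regulators), 1 to 5 (effectors), 0 to 6 (FAT and DCHS partners) and 2 to 4 (tip link partners). Of the 18 calls, 8, 8 and 9 held without high glucose 1, 2 and 3, and 13, 11 and 17 without normal glucose 1, 2 and 3, and 8 held in all 6 omissions. 2 genes that were not called changed sign: CDH4 ran from -0.47 to 0.22 on the log2 scale, positive without normal glucose 1, and CDH19, at the floor, ran from -0.92 to 0.68, negative without high glucose 1 (-0.92) or normal glucose 3 (-0.47). The cause of these movements was not tested.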
